A study of Arabidopsis thaliana with 88 samples.

Results

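Sulfate uptake and sulfur limitation genes of Arabidopsis thaliana were followed across growth conditions, genotypes and ploidies. They are 10 loci named by their identifiers, of 33681 genes quantified: the sulfate transporters SULTR1;1 (AT4G08620) and SULTR1;2 (AT1G78000), the adenosine 5'-phosphosulfate reductases APR1 (AT4G04610), APR2 (AT1G62180) and APR3 (AT4G21990), the sulfur deficiency induced genes SDI1 (AT5G48850) and SDI2 (AT1G04770), the LOW SULFUR genes LSU1 (AT3G49580) and LSU2 (AT5G24660), and the beta-glucosidase BGLU28 (AT2G44460). The study compared diploids (2x) with neo-tetraploids (4x) made with colchicine, in the Col-0 wild type and in sos3-2, esb1-1, rhd6-3/rsl1-1 and chx25-3, to find genes tied to potassium in leaves. Each mutant neo-tetraploid was a single line, so its ploidy effect cannot be told apart from that line, and none of the groups received a treatment. There were 88 libraries: roots of plants aged 2 weeks on agar plates with half-strength medium and sucrose, many plants pooled per library, and roots and shoots of single plants aged 5 weeks on peat soil. The 86 libraries with a known group formed 30 groups (5 genotypes, 2 ploidies, 3 sets) of 3 libraries, except for 4 groups of 2, and 2 soil libraries whose labels disagree on genotype were in no comparison. The study's text names the mutant labelled chx25-3 for a different gene, CHX23, so which gene is mutated is uncertain. The name in the labels is used here, and CHX23 transcript was not examined. Which soil root and shoot libraries came from 1 plant is not stated, organs were compared unpaired, and p-values measure the spread between these libraries.

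Sulfate enters the root through SULTR1;1 and SULTR1;2, high-affinity carriers of the outer cell layers and root hairs. It is then activated with ATP, and APR enzymes in plastids reduce the activated form to sulfite, a step that controls flux into cysteine and glutathione. When sulfur runs short, plants raise the carriers, the APR genes and a set of marker genes: SDI1 and SDI2 restrain glucosinolate synthesis, LSU proteins bind many partners, and BGLU28 releases sulfur from stored glucosinolates.

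Libraries held 3292994 to 10435927 assigned reads (median 7070320). Values are assigned reads of a gene per library total, as CPM after trimmed mean (TMM) scaling over all libraries, written as normalised CPM. Root and shoot labels matched their markers: 5 photosynthesis genes summed to 40248 to 78120 normalised CPM in shoots and to 8.86 to 122 in roots, and 5 root genes to 1.85 to 22.9 in shoots and at least 1137 in roots. ESB1 transcript was at most 1.87 in esb1-1 roots, SOS3 transcript at most 3.34 in sos3-2 roots, and CHX25 transcript at most 0.363 in any root library, which leaves the chx25-3 label unchecked. RHD6 transcript was at 1.65 to 4.34 in rhd6-3/rsl1-1 plate roots and at 4.55 or more in the other genotypes there, but at 0.421 to 3.35 in the soil roots of the mutant, overlapping wild type (1.15 to 2.88), and RSL1 was near the counting floor, so these genes leave that label unchecked in soil. A list of 10 root hair genes, by contrast, summed to 16.1 to 29.7 normalised CPM in the soil roots of this mutant and to 67.2 to 110 in wild type. The numbering of the file names points to 2 sample sheets. All plate libraries were on the first sheet, and among soil libraries the first held 8 of 29 root and 9 of 29 shoot libraries, mostly replicate 1. Summed counts were not whole numbers, at a tolerance of 1e-06, in 98.9% of libraries for APR2, 23.9% for SULTR1;2, 9.1% for APR3 and at most 1.1% for the other members, so part of the reads of APR2 were assigned by estimation.

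The members differed most between sets. LSU1, one of the small LSU proteins, was between 9.50 and 45.1 normalised CPM in the 28 plate roots (median 27.6), between 0 and 0.688 in the 29 soil roots (median 0.124) and between 0 and 6.93 in the 29 soil shoots (median 0.955). No soil library reached the lowest plate library. BGLU28 was read in 26 of 28 plate roots (highest 5.39 normalised CPM), in 3 of 29 soil roots with 6 reads in all, and in none of the 29 soil shoots.

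**Figure D1:**
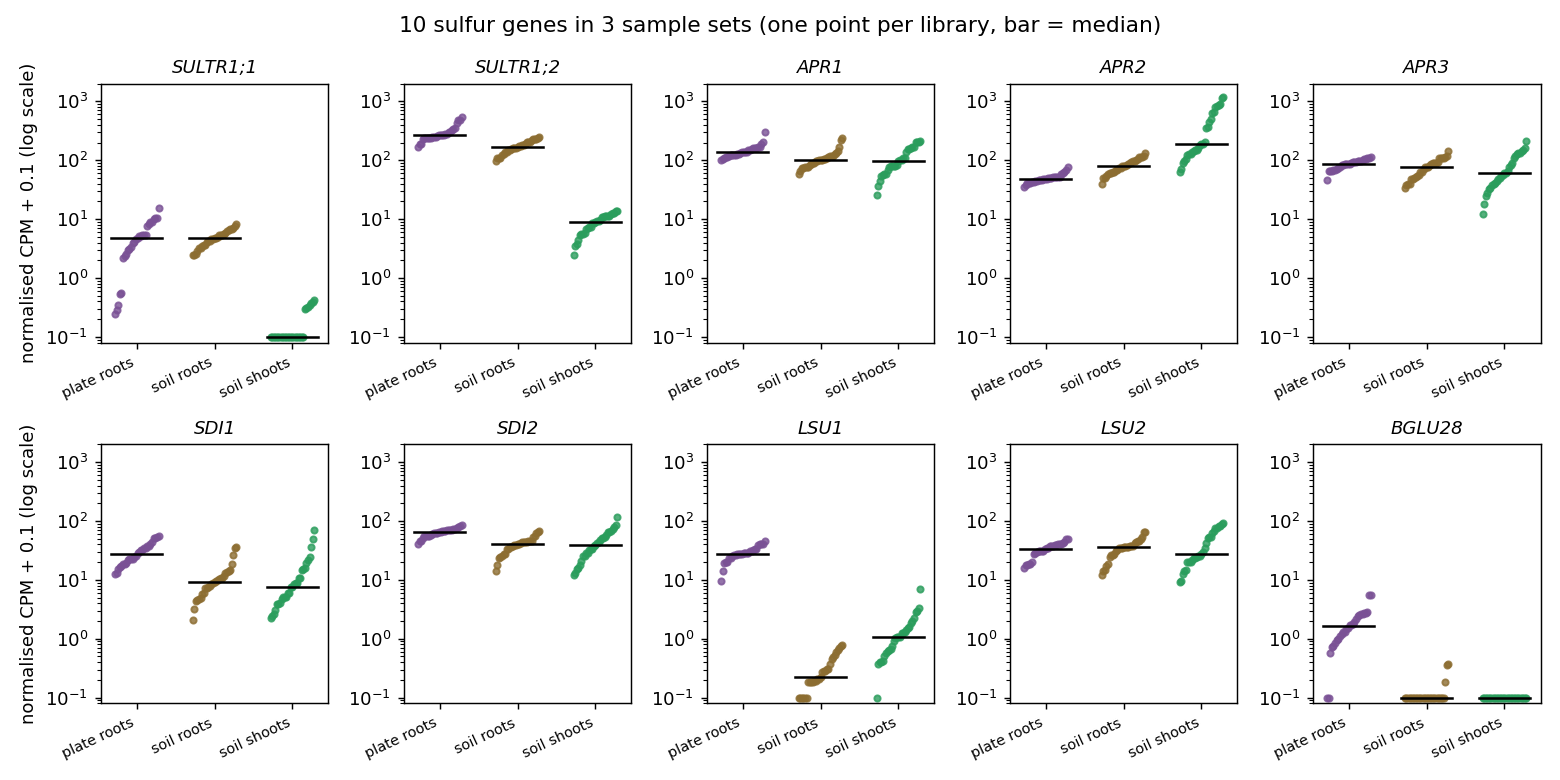
Normalised CPM plus 0.1 (log axis) of each of the 10 genes in plate roots, soil roots and soil shoots, with 1 point per library sorted by level within its set and a bar at the median. LSU1 and BGLU28 have higher medians on plates than in soil, SULTR1;1 and SULTR1;2 are higher in soil roots than in shoots, and APR2 spreads widely in shoots.

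A gene was called when its adjusted p-value was under 0.05 (edgeR quasi-likelihood test, Benjamini-Hochberg over all genes) and its log2 fold change was 0.5 or more in size. Between soil roots and plate roots 7 of the 10 members were called, 2 higher and 5 lower in soil, where 47.6% of all tested genes were called. LSU1 and BGLU28 are among these 7 but passed the filter on low counts through the plate roots, where they are higher, so their values are given with no test and the count is a description. Age, medium and the pooling of plants changed together between these sets and cannot be told apart, nor can fewer cells of a type be told apart from less RNA per cell in such bulk samples. The sheets differed too, since the first held all plate libraries but 8 of 29 soil roots. The clock gene CCA1 had a median of 3.23 normalised CPM on plates, 62.9 in first-sheet and 4.90 in second-sheet soil roots. The part of sheet and clock was not tested. LSU1 had a log2 fold change of -7.30. Its summed reads gave a plate to soil ratio of 126, with an exact 95% interval of 98.1 to 164 that covers counting error only. BGLU28 had a log2 fold change of -6.02 by edgeR and -3.30 by limma-voom, with a read ratio of 84.2 (38.4 to 231).

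The other called members changed by smaller amounts. SDI1, with a plate median of 27.4 and a soil root median of 9.28 normalised CPM, had a log2 fold change of -1.48 (SE 0.20, adjusted p = 1.42e-09). SULTR1;2 went from 265 to 167 (log2 fold change -0.72, SE 0.10, adjusted p = 1.23e-09) and SDI2 from 65 to 40.3 (log2 fold change -0.69, SE 0.15, adjusted p = 2.85e-05). APR2 went the other way and was higher in soil (47.5 against 80.9, log2 fold change 0.70, SE 0.21, adjusted p = 0.00269). SULTR1;1 was called higher in soil (log2 fold change 0.59, SE 0.15, adjusted p = 0.000456), but its medians were close, 4.60 and 4.74. Over the 4 genotypes other than rhd6-3/rsl1-1, a comparison added after the data were seen in which 47.5% of genes were called, its log2 fold change was -0.28 (SE 0.14, adjusted p = 0.0782). APR1 was lower in soil by less than the fold threshold (log2 fold change -0.42, SE 0.12, adjusted p = 0.0013). LSU2, a relative of LSU1, had medians of 33.9 on plates and 35.4 in soil roots (log2 fold change 0.14, SE 0.19, adjusted p = 0.499).

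Other genes of sulfur metabolism were called at a share close to that of all genes. Of 35 genes in 3 lists (10 other sulfate transporters, 19 genes of sulfate activation and assimilation, 6 other sulfur limitation genes), 4 were called higher and 15 lower in soil roots, 19 in all beside 47.6% of all genes. The largest change was that of SULTR1;3, a transporter of phloem companion cells (log2 fold change -5.49, SE 0.34). It had 6 reads in all soil roots, passed the filter through the plate roots and is given with no test. Next came BGLU30, a beta-glucosidase also raised by sulfur shortage (-4.35, SE 0.19), and SERAT2;1, a plastid serine acetyltransferase (-2.42, SE 0.10). Both had an edgeR adjusted p of at most 1.36e-22. The median log2 fold change was -0.40 over the 35 genes and 0.04 over all genes.

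Between soil roots and soil shoots 4 of the 10 members were called, 2 in each direction, where 65.3% of all tested genes were called. SULTR1;2 was at 95.5 to 246 normalised CPM in soil roots and at 2.40 to 13.7 in shoots, with a log2 fold change of 4.34 (SE 0.12, adjusted p = 1.77e-42). SULTR1;1 was at 2.32 to 8.16 in soil roots and gave 7 reads in all 29 shoot libraries, 22 of which had none. It passed the filter through the roots and is given with no test, with a log2 fold change of 6.48 by edgeR and 1.82 by limma-voom and a ratio of summed reads of 169 (exact 95% interval 82 to 422). The root levels of both carriers lay wholly above their shoot levels. LSU1 was low in both organs, with 63 reads in all soil roots and 159 in all shoots, a ratio of 3.01 (2.24 to 4.10), and was in this test only through the plate roots. APR2 was lower in roots (39.9 to 130) than in shoots (62.3 to 1187), with a log2 fold change of -2.09 (SE 0.22, adjusted p = 1.77e-13). Within the second sheet alone this difference was -1.12 (SE 0.15, adjusted p = 8.73e-08), and the 9 highest APR2 values were those of the first-sheet shoots.

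The ranges of the other 5 members with reads in all soil libraries overlapped between organs. APR1 had medians of 102 in roots and 98.4 in shoots, APR3 of 77.1 and 60.6, SDI1 of 9.28 and 7.54, and SDI2 of 40.3 and 38.6, with adjusted p between 0.372 and 0.933. LSU2 had medians of 35.4 and 27.1 (adjusted p = 0.260). These medians combine opposite differences on the 2 sheets. On the first sheet the shoot medians of all 5 were above the root medians (APR3 133 against 63.4, LSU2 75.0 against 36.5). On the second sheet they were below (APR3 46.2 against 77.5, LSU2 23.3 against 35.1). This pattern was not tested. Among the 35 other genes, 9 were called higher in roots and 15 lower, 24 in all beside 65.3% of all genes. SULTR3;5, which assists sulfate loading into root vessels, had the largest root excess (log2 fold change 6.07, SE 0.16). SULTR3;1, a chloroplast transporter, was lowest in roots relative to shoots (-6.00, SE 0.22), followed in size by BGLU30 (3.78, SE 0.32). SULTR3;5 was at most 1.91 normalised CPM in shoots, SULTR3;1 at most 0.84 in soil roots, and BGLU30 had a shoot median of 0. These genes were near the counting floor there and passed the filter through other libraries, so they are given with no test. They are among the 24, so that count is a description.

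Genotype changed a few members on plates, and SULTR1;1 the most. In wild-type plate roots SULTR1;1 was at 8.01, 5.34 and 7.53 normalised CPM in the 3 diploids and at 4.66, 4.54 and 9.86 in the 3 neo-tetraploids. In rhd6-3/rsl1-1, which forms almost no root hairs, it was at 0.181 and 0.254 in the diploids and at 0.434, 0.462 and 0.140 in the neo-tetraploids. Every rhd6-3/rsl1-1 value was below every value of the other 4 genotypes, and the 5 libraries together held 11 reads against 465 in the 6 wild-type libraries, a ratio of 22.8 (exact 95% interval 12.6 to 46.1). The fitted log2 fold change was -4.51 (SE 0.45). SULTR1;1 was near the counting floor in this mutant and passed the filter through the other genotypes, so it is given with no test. With it, 2 of 10 members (SULTR1;1 and SDI1) were called in this comparison against 10.89% of all genes, a count that is a description.

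In soil roots SULTR1;1 of the same mutant was near wild type. It was at 4.11, 6.58 and 5.52 normalised CPM in rhd6-3/rsl1-1 diploids and at 2.32, 6.66 and 4.84 in its neo-tetraploids, and all but the lowest lay inside the range of wild-type soil roots (7.65, 8.16 and 6.99 in 2x, and 3.47, 2.43 and 5.21 in 4x). The log2 fold change was -0.12 (SE 0.25, adjusted p = 0.930). Fitted directly, the mutant effect differed between soil roots and plate roots by 4.38 log2 units (SE 0.54). This difference rests on the plate libraries near the counting floor and is given with no test. SULTR1;1 was the only one of the 10 members called in this comparison, added after the data were seen, where 0.944% of genes were called.

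Root hair genes moved with the plate result. Their 10-gene list, also added afterwards, summed to 22.1 to 29.6 normalised CPM in rhd6-3/rsl1-1 plate roots and to 530 to 1269 in wild-type plate roots. All 10 were called lower, where 10.89% of all genes were called. In soil roots the sums were 16.1 to 29.7 in the mutant and 67.2 to 110 in wild type. There 6 of the 10 were called lower, where 0.81% of all genes were called, and SULTR1;1 was not called. Most of the list was near the counting floor in the mutant (EXPA7 had 7 reads and PRP1 5 in its plate roots, EXPA18 4 in its soil roots). Such genes passed the filter through the other genotypes, so both counts are a description. The part of the root hair genes in the SULTR1;1 difference was not tested.

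**Figure D2:**
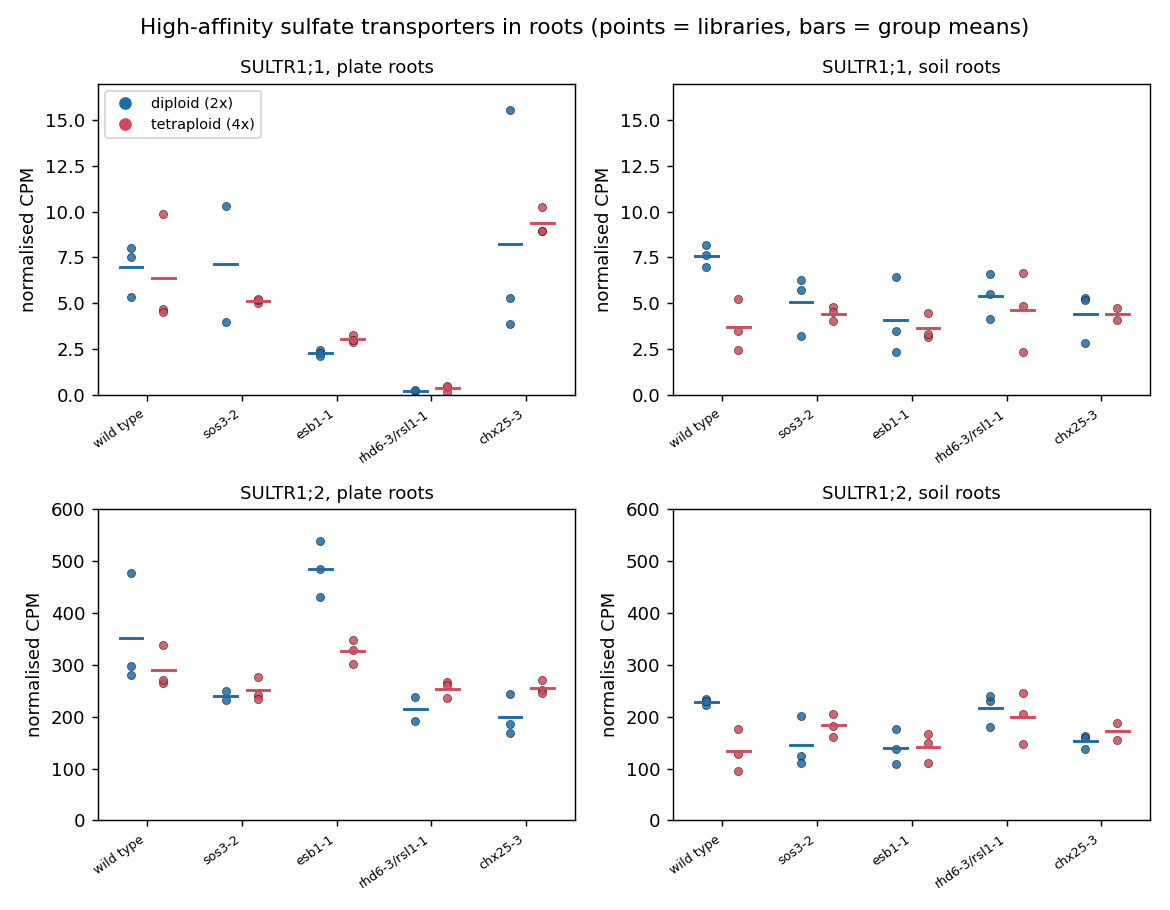
Normalised CPM of SULTR1;1 (upper row) and SULTR1;2 (lower row) in plate roots and soil roots by genotype, with 1 point per library, diploids in blue, neo-tetraploids in red and bars at group means. SULTR1;1 is below 0.5 in all rhd6-3/rsl1-1 plate roots but between 2.32 and 6.66 in the soil roots of that genotype, and wild-type soil roots have lower SULTR1;2 in 4x than in 2x.

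The esb1-1 mutant, which lacks a dirigent protein of the Casparian strip, also had less SULTR1;1 on plates. Its diploids were at 2.42, 2.29 and 2.11 normalised CPM and its neo-tetraploids at 2.90, 3.23 and 3.01, all below the lowest wild-type library (4.54). The log2 fold change was -1.31 (SE 0.26, adjusted p = 0.00186). The 10 root hair genes summed to 253 to 569 there, against 530 to 1269 in wild type. Of these genes 8 were called lower, where 7.55% of all genes were called. The part of the root hair genes was not tested. In soil roots the SULTR1;1 log2 fold change of esb1-1 was -0.45 (SE 0.25, adjusted p = 0.617), and the difference between the root sets did not pass (0.87, SE 0.40, adjusted p = 0.458), in a comparison that called 1.17% of genes and no member (4 at an unadjusted p under 0.05).

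SDI1, the glucosinolate repressor, was lower than in wild type in 3 of the mutants on plates. Wild-type values were 52.5, 32 and 50.3 normalised CPM in 2x and 38.1, 32.3 and 51.5 in 4x. The esb1-1 values were 25.7, 15.4 and 16.9 in 2x and 29.1, 18.3 and 29.1 in 4x, with no overlap with wild type (log2 fold change -0.92, SE 0.19, adjusted p = 0.00193). In chx25-3, carrying a defect in a cation/proton exchanger gene, they were 13.2, 18.4 and 22.4 in 2x and 22.6, 22.2 and 16.1 in 4x, again without overlap (-1.15, SE 0.19, adjusted p = 0.000404). For rhd6-3/rsl1-1 the log2 fold change was -0.65 (SE 0.20, adjusted p = 0.0307), but only its 2 diploids (12.5 and 19.3) lay below wild type, and its neo-tetraploids (44.3, 40.5 and 55.7) were inside or above that range. That call was lost without the first wild-type 2x, the third wild-type 4x, the first rhd6-3/rsl1-1 2x, or the first or second rhd6-3/rsl1-1 4x library (log2 fold change -0.82 to -0.52 over the fits without 1 library).

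The chx25-3 plate roots had 3 called members, all lower, where 6.39% of genes were called. Besides SDI1 these were LSU2 (log2 fold change -0.67, SE 0.17, adjusted p = 0.0128) and SULTR1;2 (-0.51, SE 0.13, adjusted p = 0.0141). LSU2 was at 18.7, 17.6 and 20.2 normalised CPM in chx25-3 2x and at 28.4, 31.1 and 29.5 in 4x, against 30.9 to 40.7 in wild type, so that only 1 neo-tetraploid library reached the wild-type range. SULTR1;2 was at 168, 185 and 243 in chx25-3 2x and at 270, 252 and 245 in 4x, against 264 to 478 in wild type, and its call was lost without the first wild-type 2x, the third wild-type 4x, the first or second chx25-3 2x, or the third chx25-3 4x library (log2 fold change -0.59 to -0.36 over the fits without 1 library). In the model of all 86 libraries none of these 3 was called (adjusted p = 0.110 for SDI1, 0.392 for LSU2 and 0.167 for SULTR1;2), nor was SDI1 in esb1-1 (0.212) or rhd6-3/rsl1-1 (0.437). Clock genes moved with these genotypes: 5 of 8 were called in chx25-3, among them CCA1 (log2 fold change -0.93), LHY (-0.67) and PRR5 (1.51), and 3 of 8 in rhd6-3/rsl1-1, CCA1 (-0.92), LHY (-0.74) and PRR5 (1.31). PRR5 (0.58) and ELF4 (-0.66) were also called in esb1-1, and PRR5 (1.05) in sos3-2. The part of the clock genes was not tested. Plate library numbers run in genotype blocks, so genotype differences on plates cannot be told apart from library order. SULTR1;2 is one of the genes the study selected on wild-type soil roots of these samples. In esb1-1 the called members were 2 of 10 against 7.55% of genes, and in sos3-2 none of 10 against 0.777% (3 at an unadjusted p under 0.05 by edgeR). Differences under the fold threshold passed the adjusted p for APR2 in esb1-1 (log2 fold change 0.45, adjusted p = 0.00823) and rhd6-3/rsl1-1 (0.35, adjusted p = 0.0443), for SULTR1;2 in rhd6-3/rsl1-1 (-0.47, adjusted p = 0.0216) and for APR3 in chx25-3 (-0.37, adjusted p = 0.0330).

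Of the 35 other sulfur genes, few were called between genotypes on plates. SULTR3;3 (log2 fold change -1.59, SE 0.33, adjusted p = 0.00282) and LSU3, a relative of LSU1 (-0.71, SE 0.22, adjusted p = 0.0401), were lower in esb1-1. SULTR2;1, a vascular low-affinity transporter, was higher in rhd6-3/rsl1-1 (0.84, adjusted p = 0.000204). None of the 35 was called in sos3-2 or chx25-3 by edgeR.

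No member was called for ploidy on plates outside rhd6-3/rsl1-1. Shared over the 5 genotypes, 0 of 10 members were called, against 0.592% of genes, although 6 had an unadjusted p under 0.05, and in wild type 0 of 10 were called against 0.037%, with none under 0.05. Of the other lists, only SULTR3;2 was called in the shared comparison (log2 fold change 0.60, adjusted p = 0.00742).

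In rhd6-3/rsl1-1, 1 member was called. SDI2 was at 40.4 and 46.1 normalised CPM in its diploids and at 71.4, 84.4 and 81.4 in its neo-tetraploids, a log2 fold change of 0.87 (SE 0.17, edgeR adjusted p = 0.0396). It was 1 of 10 members, against 0.0581% of genes, and the call was lost in 12 of 28 fits without 1 library, without the filter (adjusted p = 0.0514) and in the model of all 86 libraries. SDI1 was at 12.5 and 19.3 in 2x and at 44.3, 40.5 and 55.7 in 4x (1.55, SE 0.31, adjusted p = 0.0571). LSU2 was at 18.9 and 18 in 2x and at 43.8, 30.5 and 49.1 in 4x (1.17, SE 0.27, adjusted p = 0.126). In all of these the neo-tetraploids lay above both diploids. APR3 was at 46.1 and 70.2 in 2x and at 84.2, 100.5 and 115 in 4x (0.78, SE 0.17, adjusted p = 0.0811), and APR1 was at 112 and 121 in 2x and at 148, 204 and 301 in 4x (0.91, SE 0.22, adjusted p = 0.134).

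In that comparison 6 of the 10 members were higher at an unadjusted p under 0.05, a rule added after the data were seen that took 3.44% of all genes. The difference of this ploidy effect from that of wild type was positive in 10 of 10 members but called in none, with SDI1 at 1.71 log2 units (SE 0.40, adjusted p = 0.344) and SDI2 at 1.07 (SE 0.22, adjusted p = 0.283). GGCT2;1, a glutathione-degrading enzyme raised by sulfur shortage, was the only one of the 35 other genes called in this line (2.35, adjusted p = 0.0362). LSU1 had a log2 fold change of -0.06 in this genotype (adjusted p = 0.984). SULTR1;1 was near the counting floor in both ploidies and is given with no test (log2 fold change 0.62).

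**Figure D3:**
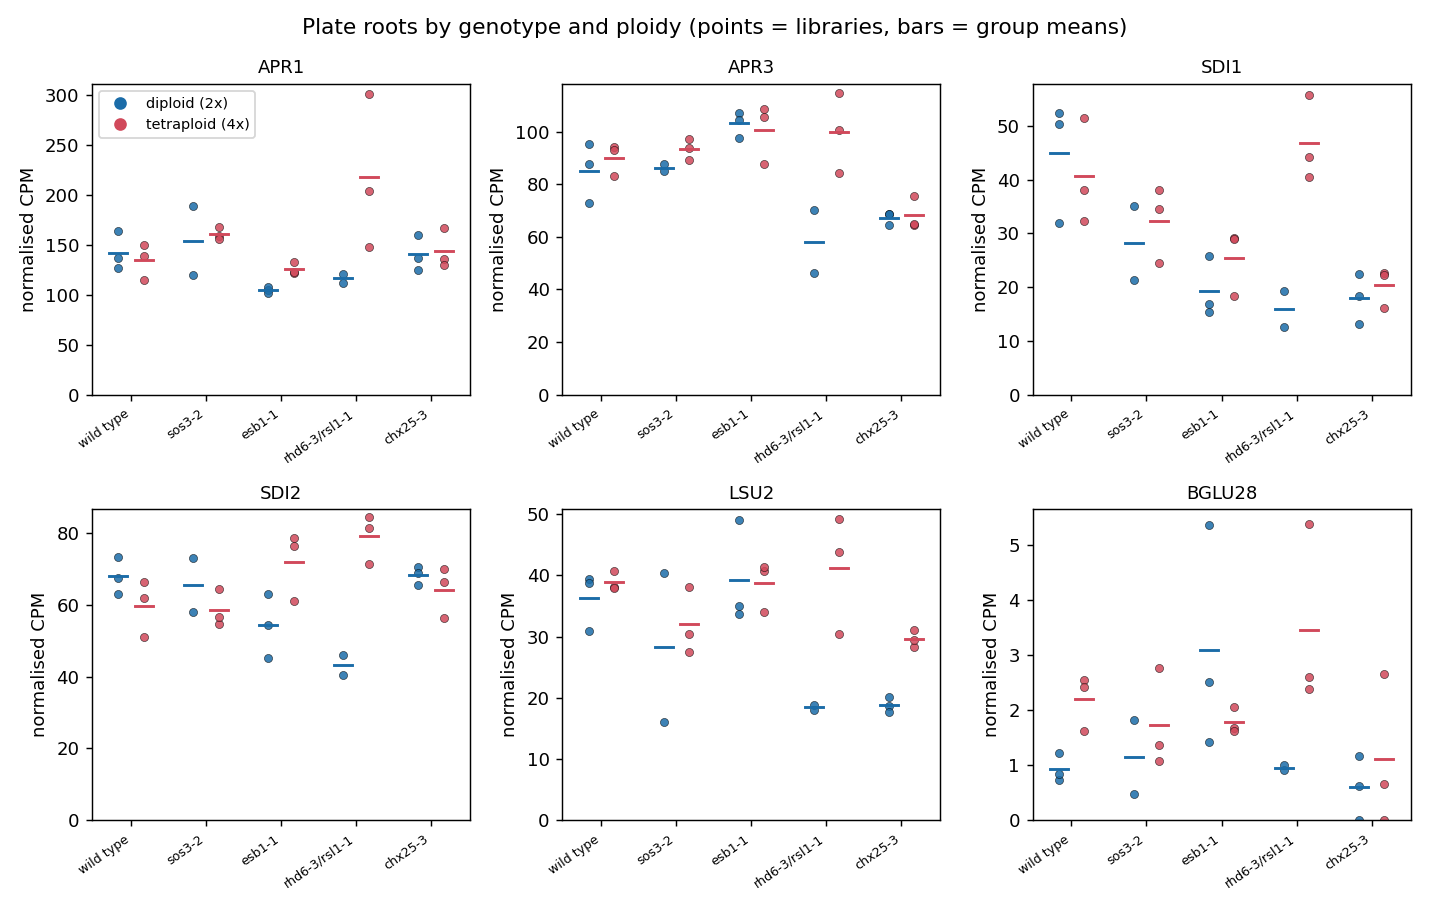
Normalised CPM of APR1, APR3, SDI1, SDI2, LSU2 and BGLU28 in plate roots by genotype, with 1 point per library, diploids in blue, neo-tetraploids in red and bars at group means. The neo-tetraploids of rhd6-3/rsl1-1 lie above both diploids in all 6 genes, and SDI1 is below wild type in esb1-1 and chx25-3.

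Of the 10 members, 8 passed the filter for low counts in soil roots (LSU1 and BGLU28 did not). Only 1 was called between a mutant and wild type. APR3 was lower in esb1-1 soil roots, at 48.2, 33 and 51.9 normalised CPM in 2x and 50.1, 37.2 and 47.6 in 4x, against 110, 85.8 and 109 in wild-type 2x and 71, 39.4 and 77.1 in wild-type 4x (log2 fold change -0.83, SE 0.22, adjusted p = 0.0478). It was 1 of 8 against 1.64% of genes, all 8 estimates were negative, and 1 wild-type neo-tetraploid overlapped the esb1-1 range. The call was lost in 19 of 29 fits without 1 library, in the model of all 86 libraries (adjusted p = 0.832), with limma-voom (0.0805), in the second sheet alone (0.229) and with library number as a covariate (0.0642). In sos3-2, rhd6-3/rsl1-1 and chx25-3 soil roots 0 of 8 were called, against 0.0526%, 0.81% and 0.0315% of genes, and 0 had an unadjusted p under 0.05 by edgeR. SERAT3;1, a cytosolic serine acetyltransferase, was the only one of the other sulfur genes called, lower in esb1-1 (-0.51, adjusted p = 0.0343).

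Ploidy estimates in wild-type and sos3-2 soil roots had opposite signs for most members, and none was called in the model of soil roots without further terms. SULTR1;2 was at 233, 222 and 229 normalised CPM in wild-type 2x and at 129, 95.5 and 176 in 4x (log2 fold change -0.76, SE 0.23, adjusted p = 0.202). SULTR1;1 was at 7.65, 8.16 and 6.99 in 2x and at 3.47, 2.43 and 5.21 in 4x (-1.0, SE 0.34, adjusted p = 0.291). Both carriers were lower in every wild-type neo-tetraploid library than in any diploid one. SDI2 was at 67.6, 27.2 and 54.6 in 2x and at 25.1, 14 and 38.3 in 4x (-0.94, SE 0.32, adjusted p = 0.316). LSU2 was at 65.5, 30.8 and 45.9 in 2x and at 18.7, 14.7 and 35.1 in 4x (-1.04, SE 0.39, adjusted p = 0.388). SDI1 was at 35.2, 7.05 and 10.4 in 2x and at 4.30, 4.86 and 9.32 in 4x (-1.49, SE 0.54, adjusted p = 0.347). The last 3 genes overlapped between ploidies, and for SDI1 the first diploid library stood apart.

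All 8 tested members had negative wild-type estimates (median -0.85), and 0 of 8 were called against 0.11% of genes. At an unadjusted p under 0.05, 7 of 8 were lower, where this rule took 4.41% of genes. That count was 2 without the first wild-type diploid library, 3 without the second wild-type neo-tetraploid library and 2 in the second sheet alone. With the sheet as a covariate it was 8. SULTR1;2 was among the genes the study chose because they differed in these wild-type libraries, so its difference here is no independent evidence.

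In sos3-2, a mutant of a calcium sensor of the salt response, the estimates were positive in 7 of 8 members. APR1 was at 97.5, 78.2 and 90.4 normalised CPM in sos3-2 2x and at 236, 126 and 165 in 4x (log2 fold change 0.99, SE 0.28, adjusted p = 0.173). SDI1 was at 10.8, 5.70 and 9.28 in 2x and at 36.3, 13.2 and 18.3 in 4x (1.39, SE 0.52, adjusted p = 0.316). LSU2 was at 35.4, 11.9 and 26.9 in 2x and at 64.3, 36.7 and 54.3 in 4x (1.07, SE 0.39, adjusted p = 0.311). In these 3 genes each neo-tetraploid library was above each diploid one. At an unadjusted p under 0.05, 5 of 8 members were higher, where the rule took 5.16% of genes, and this count was 1 without the second sos3-2 diploid library, 2 without the first and 3 without the third sos3-2 neo-tetraploid library, and 3 in the second sheet alone.

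The difference between the sos3-2 and wild-type ploidy effects was positive in 8 of 8 members, with 7 at an unadjusted p under 0.05 against 3.36% of genes in that direction. None was called. SDI1 had the largest difference (2.88 log2 units, SE 0.75, adjusted p = 0.530), then LSU2 (2.11, SE 0.56, adjusted p = 0.532), APR3 (1.57, SE 0.43, adjusted p = 0.647) and APR1 (1.53, SE 0.39, adjusted p = 0.530). Within the second sheet alone 5 of 8 passed the unadjusted rule. The esb1-1, rhd6-3/rsl1-1 and chx25-3 estimates scattered on both sides of 0, and averaged over the 5 genotypes 0 of 8 members were called, against 1.59% of genes, with none at an unadjusted p under 0.05. These comparisons share the wild-type libraries. SULTR1;2 is among the 8 members, and the study selected it for differing by ploidy in wild-type soil roots but not in sos3-2 or esb1-1. Its difference between these genotypes is no independent evidence. APR1, APR2, APR3, SDI1, SDI2 and LSU2 were correlated across libraries (0.591 to 0.835), so the unadjusted counts here and above do not count separate results. None of the 35 other sulfur genes was called for ploidy in soil roots, and their median wild-type log2 fold change was 0.08.

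**Figure D4:**
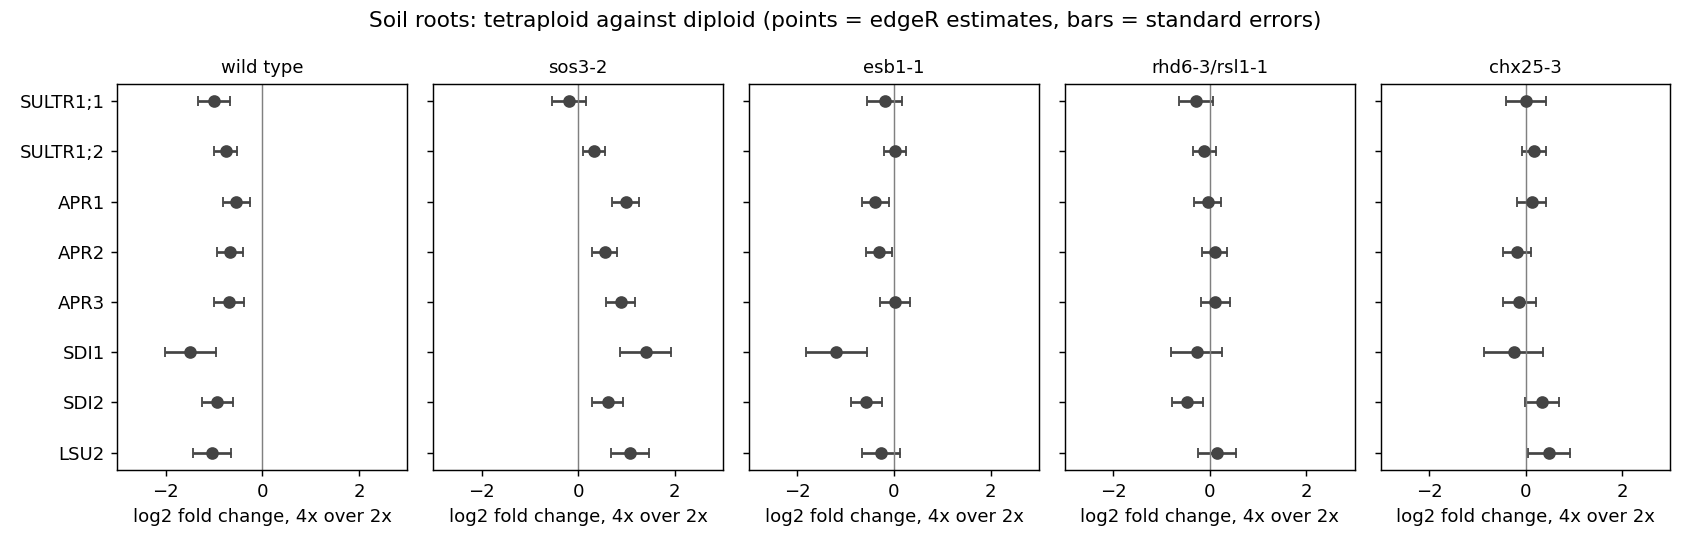
Log2 fold change of neo-tetraploids over diploids (horizontal axis) in soil roots of each genotype for the 8 members tested, with points at the edgeR estimate and bars of 1 standard error. All 8 estimates are negative in wild type and 7 of 8 are positive in sos3-2, while none passed the adjusted threshold.

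In soil shoots 7 members were tested (SULTR1;1, LSU1 and BGLU28 were too low), and the sample sheet went with the widest spread. APR2 was at 506 to 1187 normalised CPM in the 9 first-sheet shoots (median 837) and at 62.3 to 441 in the 20 second-sheet shoots (median 146), with no overlap. LSU2 was at 52.9 to 92.3 (median 75.0) in the first and at 9.01 to 54.4 (median 23.3) in the second. In wild type, APR2 was at 837, 145 and 106.4 in 2x and at 645, 147 and 70.9 in 4x, so that 1 library of each group was far above the other 2.

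With the sheet in the model, a comparison added after the data were seen, 6 of 7 members were lower on the second sheet, where 27.8% of genes were called. The log2 differences were -2.27 for APR2 (SE 0.23, edgeR adjusted p = 1.54e-07), -1.81 for LSU2 (SE 0.21), -1.66 for APR3 (SE 0.21), -1.64 for SDI1 (SE 0.29), -1.27 for SDI2 (SE 0.21) and -0.95 for APR1 (SE 0.17). SULTR1;2 was the exception. In soil roots 0 of 8 members were called by sheet, against 4.99% of genes, and APR1 passed the adjusted p with a smaller change (-0.47, adjusted p = 0.00647). Clock genes moved with the sheet too: LHY, a morning clock factor, was at 296 to 1131 in first-sheet shoots and 2.29 to 342 in second-sheet shoots, with 7 of 8 clock genes called in shoots and 7 of 8 in soil roots. Their part in the member differences was not tested.

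**Figure D5:**
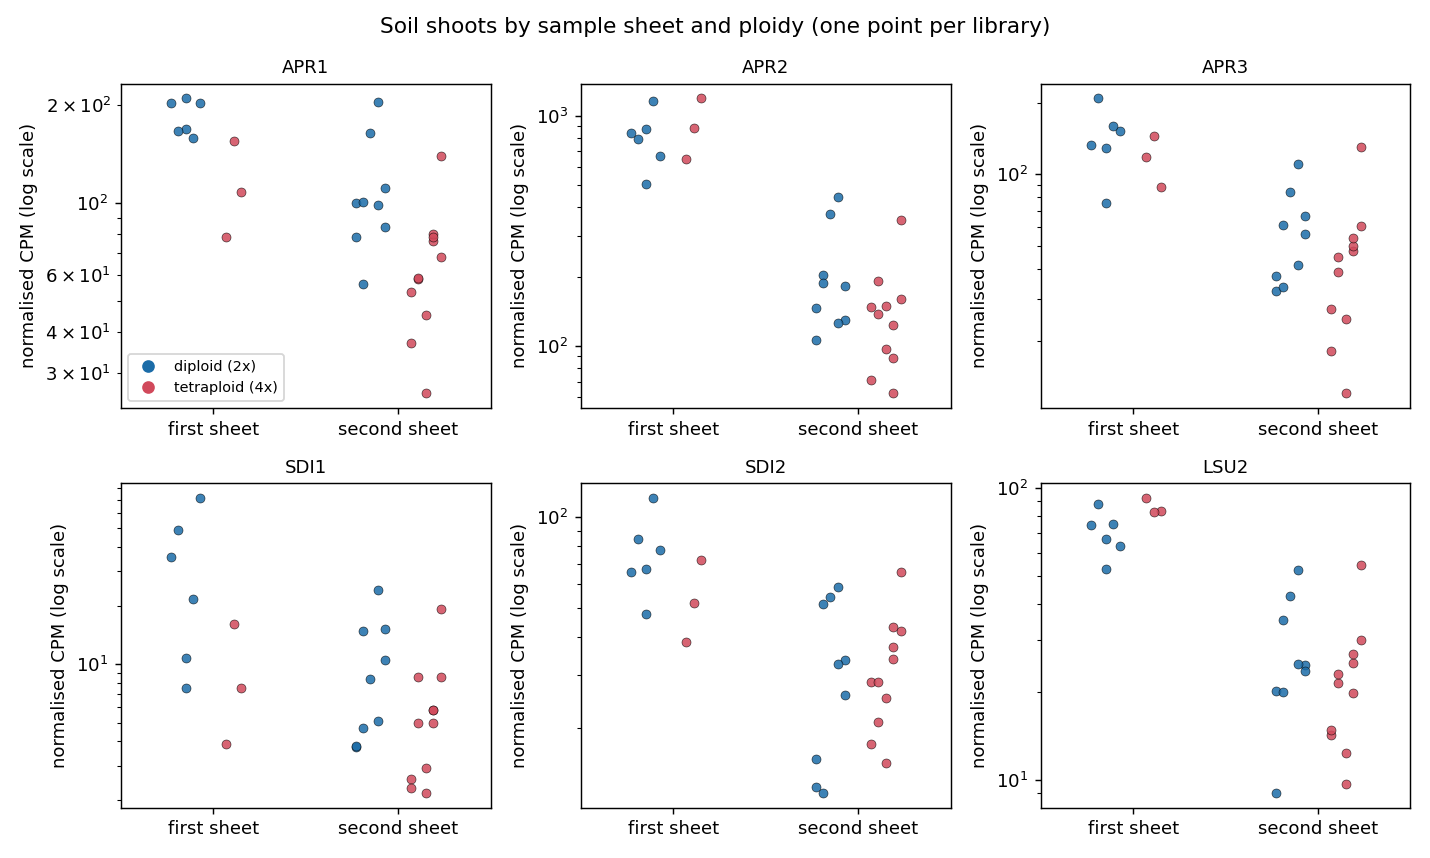
Normalised CPM (log axis) of 6 members in soil shoots by sample sheet, with 1 point per library, diploids in blue and neo-tetraploids in red. APR2 is at least 506 in all first-sheet shoots and at most 441 in all second-sheet shoots, and the neo-tetraploids of the second sheet reach the lowest values of APR1, APR2, APR3 and SDI1.

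Against that spread, 2 of 7 members were called lower in neo-tetraploid shoots over the 5 genotypes, where 11.2% of genes were called. APR1 ranged from 56.1 to 209 normalised CPM in diploid and from 26 to 155 in neo-tetraploid shoots. Its log2 fold change was -0.83 (SE 0.23, adjusted p = 0.0164), -0.68 with the sheet as a covariate (SE 0.15, adjusted p = 0.00238) and -0.86 in the second sheet alone (SE 0.18, adjusted p = 0.00464). SDI1 ranged from 3.73 to 71.3 in diploids and from 2.18 to 19.2 in neo-tetraploids, with a log2 fold change of -1.44 (SE 0.40, adjusted p = 0.0155). With the sheet as a covariate it was -0.95 (SE 0.28, adjusted p = 0.0155) and in the second sheet alone -0.81 (SE 0.29, adjusted p = 0.0776), which was not called.

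Both calls were lost without the third chx25-3 neo-tetraploid shoot library (APR1 -0.76, adjusted p = 0.0588, and SDI1 -1.35, adjusted p = 0.0531). The first sheet held 6 diploid and 3 neo-tetraploid shoot libraries, and none of the rhd6-3/rsl1-1 neo-tetraploids. APR1 was the only member whose shared ploidy effect differed between soil roots and soil shoots (0.89 log2 units, SE 0.24, adjusted p = 0.0075, lost without replicate 2 or without replicate 3 of every group), where 9.22% of genes were called, and between soil roots and plate roots 0 of 10 were called against 0.0688% (2 at an unadjusted p under 0.05). In wild-type shoots alone 0 of 7 were called against 1.11% (2 at an unadjusted p under 0.05). Between mutants and wild type no member was called in shoots by edgeR, and at an unadjusted p under 0.05 there was 1 member, in chx25-3. Of the other sulfur genes, 4 of the 31 tested were called lower in neo-tetraploid shoots and none higher, beside 11.2% of all genes, led by SULTR4;2, a vacuolar sulfate exporter (-1.06, adjusted p = 0.00799), then MSA1 (-0.75, adjusted p = 0.0165) and APK3 (-0.60, adjusted p = 0.0341).

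APR1, APR2, APR3, SDI1, SDI2 and LSU2 resembled each other across libraries, with correlations of 0.591 to 0.835 among them. Likeness was the Pearson correlation of log2 CPM over 86 libraries after the mean of each set was removed, a description in which libraries share groups and sample sheets. Nearest to APR3 was LSU2 (r = 0.835), then APR1 (0.783) and APR2 (0.773), and nearest to SDI1 were APR1 (0.769), LSU3 (0.753) and APR3 (0.743). APR3, LSU2 and APR1 also led the list for SDI2 (0.759, 0.749 and 0.742). The correlations of LSU1 with the other members were 0.061 to 0.506 and those of BGLU28 -0.329 to 0.225. The carriers also stood outside this group: for SULTR1;1 the nearest genes were AT4G26010 (0.916), IQD4 (0.895) and AT1G34330 (0.862), and for SULTR1;2 they were ELF5A-3 (0.542), ABCG37 (0.518) and AT2G44340 (0.499). APR2 was nearest to AT2G27420 (0.904), LSU1 to AT2G20760 (0.528) and BGLU28 to PLT1 (0.572).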

How the data were processed

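QuantSeq 3' mRNA libraries were sequenced and quantified by the authors with Salmon (version, transcript set and genome build not given in the sources used here). The deposited estimated counts per transcript were summed per locus and rounded, and the deposited TPM served as a check of the sums and for the limma-voom alternative. Per the study's methods, its own analysis used TMM scaling. Samples were grouped by their labels. Comparisons used edgeR 4.0.16 quasi-likelihood tests (R 4.3.3, TMM, genes reaching 2 CPM in 3 or more libraries, 6 in the joint model), with 1 model per set and 1 of all 86 grouped libraries. A call needed a Benjamini-Hochberg adjusted p under 0.05 together with a log2 change of 0.5 or more in size. The pipeline, tested on simulated data for the shared ploidy comparison of soil roots, recovered 95.4% of 110 genes changed 2-fold among 18830, with 13 false calls. That comparison averages over genotypes, so this share does not carry over to comparisons within 1 genotype. The simulation gave all genes the same relative spread and held no sheet, genotype or replicate differences. It does not measure recovery or false calls where these are present. Libraries held 3292994 to 10435927 reads. With 2 or 3 libraries per group, small changes go undetected, and 3 reads equal 0.287 to 0.911 CPM. The members and gene lists were chosen with earlier results of these data known. All 10 members were named, with up to 3 called genes of largest change from the other sulfur lists per comparison. Alternatives covered scaling, filter, DESeq2, limma, the replicate block, sheet, library order and each library left out. RefSeq supplied symbols.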

Additional observations from a re-analysis of the deposited data

Results flagged for a closer look

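The effect of rhd6-3/rsl1-1 on SULTR1;1 differed between the root sets. Soil minus plate, the difference was 4.38 log2 units (SE 0.54), since the transcript was lower than in wild type in all 5 plate libraries of the mutant and near wild type in soil. It is given with no test, because those plate libraries were near the counting floor.

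The ploidy effect on APR1, averaged over genotypes, was higher in soil roots than in soil shoots by 0.89 log2 units (SE 0.24, edgeR adjusted p = 0.0075). The call was lost without replicate 2 (0.97 log2 units) or without replicate 3 (0.80) of every group. In this comparison 9.22% of all genes were called.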

How the results depend on the processing

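Of 36 member comparisons that were called, 27 held under every alternative setting, 22 of the 30 refitted without 1 library or replicate number held in every such fit, and none reversed. The 36 include the comparisons of LSU1, BGLU28 and SULTR1;1 given above with no test. Those passed the filter through the sets or genotypes where they are higher and held in every fit, so these counts are a description. The count of members called between mutants and wild type was 7 on plates and 2 in the model of all 86 libraries, and in soil roots 1 against 0 in that model, with limma-voom and in the second sheet alone (0 to 1 without 1 library). Ploidy calls in the 4 mutants on plates were 1, against 0 in the model of 86 libraries and 5 with DESeq2 (0 to 5 without 1 library), and in shoots 0, against 2 in the model of 86 libraries and 1 with the sheet as a covariate. Shared ploidy calls were 0 on plates (0 to 2 without 1 library) and 2 in shoots, against 1 with limma-voom and 1 in the second sheet alone (0 to 2 without 1 library). Wild-type shoot ploidy calls were 0, against 2 in the model of 86 libraries and 1 with library number as a covariate. DESeq2 called 2 members rather than 0 for the ploidy difference between mutants and wild type on plates, and 2 rather than 1 for the shared ploidy difference between sets, which was 0 to 1 without 1 replicate number. The causes were not tested. For comparisons between sets, replicates were left out by number only.

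Replicate numbers were not treated as pairing the samples, since not every pair correlated above 0.1. Deviations of same-numbered libraries did so in 34 of 118 plate pairs, 74 of 126 soil root pairs and 108 of 126 shoot pairs, with mean correlations of 0.012, 0.132 and 0.314, against -0.006, -0.066 and -0.155 for other numbers, and in soil the number partly follows the sheet. With the replicate block, SULTR1;2 was called for wild-type ploidy in soil roots (-0.80, edgeR adjusted p = 0.0457), 1 member rather than 0, and APR3 for the difference between the sos3-2 and wild-type ploidy effects there (1.64, adjusted p = 0.0430), again 1 rather than 0. SDI2 lost its rhd6-3/rsl1-1 ploidy call on plates (0.84, adjusted p = 0.0739), which left 0 there. In shoots the block called 3 rather than 2 members for shared ploidy and 1 rather than 0 for ploidy in the mutants. At this depth, 3 reads equal 0.287 to 0.911 CPM, which limits SULTR1;1 in shoots and in rhd6-3/rsl1-1 plate roots, and LSU1 and BGLU28 in soil.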

Other observations

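The 2 soil libraries in no group, a root and a shoot, had members within the range of the grouped libraries with 1 exception. SDI1 was at 2.01 normalised CPM in the shoot library, under the lowest grouped shoot (2.18). APR2 was at 694 in that shoot library and at 44.7 in the root library.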
